A study of Mus musculus with 10 samples.

Results

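The liver makes most of the proteins of blood coagulation and complement and secretes them into plasma, and 35 genes of these 2 systems are described here across 7 mouse tissues. They were chosen by name, with earlier results of these data known, from the 31053 genes listed in the count tables. The shares of all genes set beside member counts below are therefore a description and not an independent comparison. All 35 were found, and all had a mean level of 10 CPM or more over the tissues, where CPM is the count of unique molecular identifiers (UMIs) scaled to a fixed library total.

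Coagulation is a cascade of serine proteases and cofactors that turns prothrombin into thrombin, which then cleaves fibrinogen to fibrin, while plasmin dissolves the clot and serpins hold the proteases in check. Complement is a parallel cascade started by C1, by mannose-binding lectins or by the alternative pathway, which converge on C3 and end in the membrane attack complex. Hepatocytes are the main source of nearly all of these proteins, and in the lobule hepatocytes near the portal vein and near the central vein express different sets of genes.

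RNA was captured from frozen sections on Visium slides, whose barcoded spots cover areas large enough for several cells of different types. The series holds 10 sections of 7 tissues. NEJ146 was cut into 4 adjacent sections, and 1 section each came from NEJ638, NEJ654, NEJ677, NEJ634, NEJ687 and NEJ723. The study models hepatoblastoma, a liver tumour of early childhood, in Alb-Cre;CAG-Myc mice on a C57BL/6J background, in which Cre under the albumin enhancer and promoter removes a stop cassette so that the CAG promoter drives human MYC in the hepatocyte lineage. The labels call every sample hepatoblastoma, give no age, genotype or treatment for single tissues, and do not say which sections are normal liver. The study's text names NEJ146, NEJ634, NEJ723 and NEJ687 as tumours, called the 4 tumours below, and speaks of healthy livers for the rest without naming NEJ638, NEJ654 and NEJ677, which are called the other 3 tissues. Since each tissue is a single sample, the order of the tissues is a description and no test between tissues was run.

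The sections held 39280329 to 117077925 UMIs over 1890 to 4878 tissue spots, with a median of 12133.5 to 28926.5 UMIs per tissue spot. The hepatocyte markers Alb, Ttr, Apoa1, Hnf4a and Tdo2 summed to 13386 to 27811 CPM in the sections of the 4 tumours and to 78443 to 111476 CPM in the other 3 tissues. The tumour and hepatoblast markers Afp, Igf2, H19, Dlk1 and Gpc3 summed to 3834 to 13632 CPM in the former and to 10.4 to 95.2 CPM in the latter. Erythroid markers ranged from 680 to 8180 CPM in the 4 tumours and from 78.2 to 204 CPM in the other 3 tissues, megakaryocyte markers from 54.5 to 122 against 9.39 to 14.7 CPM, and neutrophil markers from 63.3 to 403 against 0.49 to 1.88 CPM. Endothelial markers ranged from 65.9 to 135 CPM in the 4 tumours and from 151 to 179 CPM in the other 3 tissues. None of these lists overlapped between the groups, but the macrophage, stromal and biliary lists did. Macrophage markers ranged from 156 to 1406 CPM in the 4 tumours and from 233 to 417 CPM in the other 3 tissues. Stromal markers ranged from 258 to 1065 against 224 to 509 CPM, and biliary markers from 5.90 to 144 against 5.98 to 15.2 CPM. The part of all these lists in the levels below was not tested. The NEJ146 libraries carried 6.78% to 7.22% mitochondrial UMIs against 2.46% to 3.86% elsewhere, and their labels name total RNA where the other labels name polyA RNA. Spots outside the tissue calls held a median of 6660 to 11895 UMIs in the 6 tissues with 1 section. In spots of mixed cells, fewer hepatocytes and less RNA per hepatocyte cannot be told apart.

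The promoters of the members at the centre of the results are shown first, as the 250 bases before the RefSeq transcript start on GRCm38.p6, read 5′ to 3′ on the strand of the gene. Mbl2 and Mbl1, which encode the mannose-binding lectins, had the largest differences between tissues, and F13b and Hc are the members whose window holds a short site of HNF1, a transcription factor of hepatocytes. Capitals mark matches to the searched letters.

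Mbl2 (chr19:30232678-30232927, plus strand): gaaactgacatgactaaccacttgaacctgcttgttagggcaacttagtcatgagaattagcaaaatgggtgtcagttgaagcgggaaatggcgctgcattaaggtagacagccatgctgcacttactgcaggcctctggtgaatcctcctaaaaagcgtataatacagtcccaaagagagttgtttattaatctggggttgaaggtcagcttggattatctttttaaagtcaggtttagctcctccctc

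Mbl1 (chr14:41151206-41151455, plus strand): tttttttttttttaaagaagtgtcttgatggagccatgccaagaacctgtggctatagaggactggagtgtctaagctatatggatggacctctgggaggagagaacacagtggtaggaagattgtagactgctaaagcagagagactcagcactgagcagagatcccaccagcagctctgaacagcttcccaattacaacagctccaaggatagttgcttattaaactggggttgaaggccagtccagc

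F13b (chr1:139501457-139501706, plus strand): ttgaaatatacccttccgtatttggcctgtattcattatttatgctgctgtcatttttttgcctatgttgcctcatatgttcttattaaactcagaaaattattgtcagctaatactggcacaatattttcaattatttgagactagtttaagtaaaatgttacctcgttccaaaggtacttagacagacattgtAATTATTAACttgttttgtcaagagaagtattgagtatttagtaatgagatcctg

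Hc (chr2:35061413-35061662, minus strand): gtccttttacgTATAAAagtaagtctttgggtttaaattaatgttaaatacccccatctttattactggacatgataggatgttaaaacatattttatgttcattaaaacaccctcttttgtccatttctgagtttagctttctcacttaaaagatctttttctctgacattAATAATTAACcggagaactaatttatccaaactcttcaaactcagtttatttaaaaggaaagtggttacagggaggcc

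RefSeq windows were matched for 27 of the 35 members, with 29 windows in all. On either strand, a short form of the HNF1 site was found in 2 member windows (6.90%) and in 0.371% of all 32851 windows. In F13b the match begins 55 bases before the start and in Hc 78 bases before it, both on the strand opposite to the gene. The full HNF1 site and the HNF4 letters CAAAGTCCA were in none of the member windows. The C/EBP letters TTGCNNCAA were found in C6 alone among the members, against 1.74% of all windows, and TATAAA in Hc and Klkb1, against 12.4% of all windows. These matches describe letters in a window and not binding sites in use.

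The members took 2.65% to 2.90% of all UMIs in the other 3 tissues, 2.61% in NEJ687, 1.20% to 1.67% in the NEJ146 sections, 1.35% in NEJ634 and 1.38% in NEJ723. In this sum, in which the genes of highest level weigh most, NEJ687 was close to the other 3 tissues and the remaining tumours were lower. Relative to the median of the other 3 tissues, the median member stood at 47.0% in NEJ146, 47.7% in NEJ723, 45.4% in NEJ634 and 73.9% in NEJ687. Albumin was lower than that in each of them, at 13.7%, 11.2%, 18.8% and 12.4%, but other hepatocyte markers were not. Hnf4a stood above the median member in each, at 66.2%, 63.7%, 63.6% and 92.5% in the same order. Ttr stood at 31.2%, 48.6%, 61.1% and 39.8%, and Apoa1 at 34.3%, 95.4%, 56.4% and 74.4%, on either side of the median member. Over the 8019 genes with a value, the median gene stood at 112%, 144%, 143% and 136% in the same order.

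**Figure D1:**
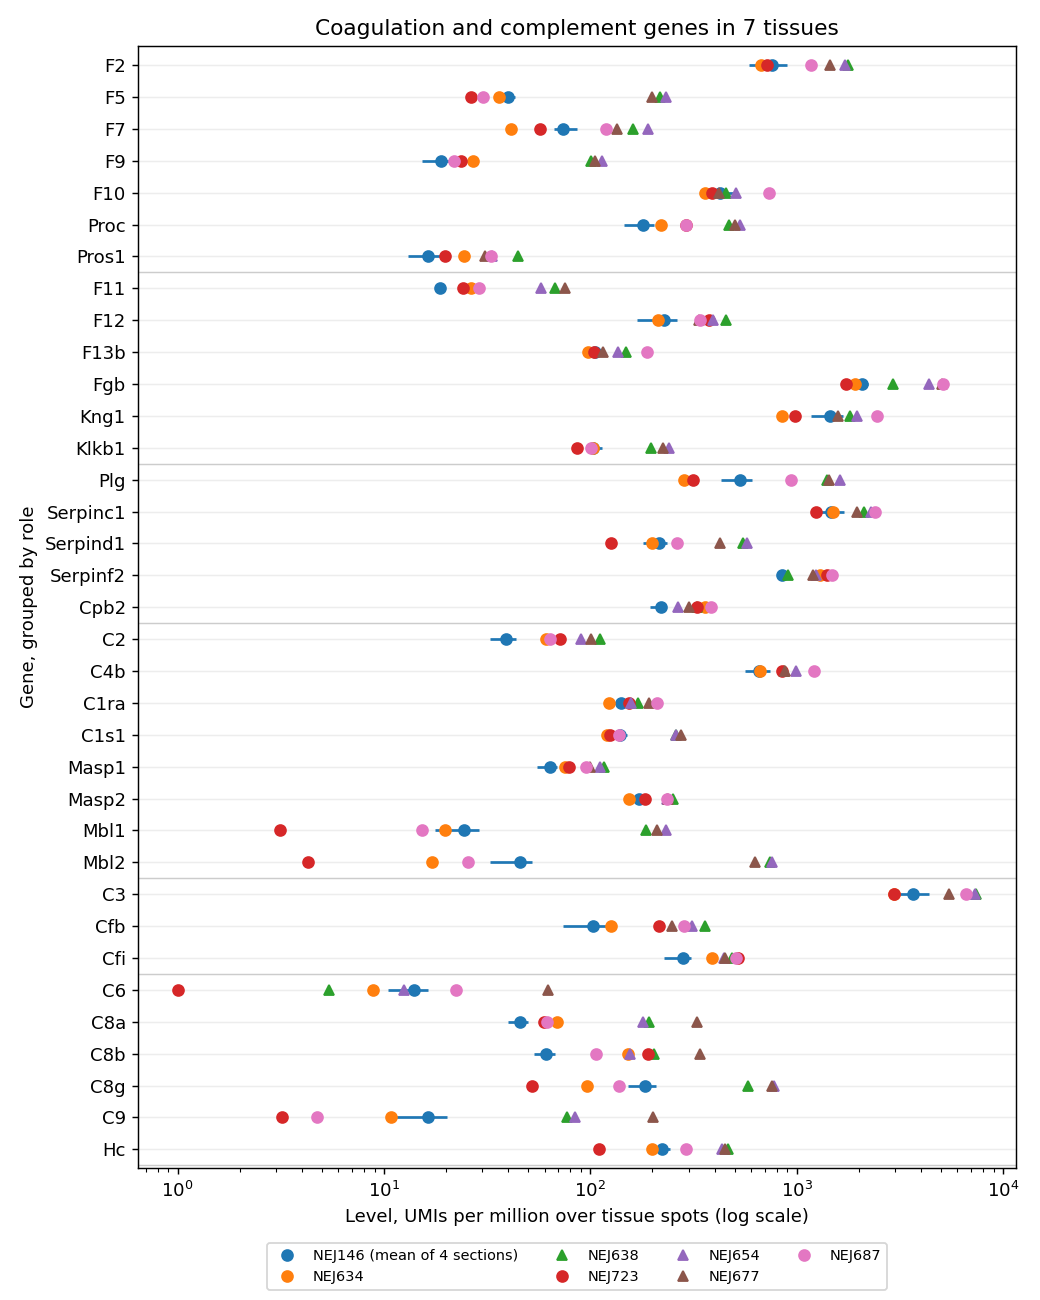
Level of each of the 35 genes in CPM (log scale) in 7 tissues, grouped by role, with circles for the 4 tumours, triangles for the other 3 tissues and a bar over the range of the 4 NEJ146 sections. Mbl1, Mbl2, F5, F9 and C9 show circles far to the left of the triangles, while F10, Cpb2 and Serpinf2 show them mixed.

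For 18 of the 35 members, all 4 tumours were below all of the other 3 tissues, an order that 18.1% of the 8021 genes at that mean level also had. The opposite order was held by 0 members and by 44.1% of all genes. The gap between the groups was taken as log2 of the lowest (CPM + 1) in one group over the highest in the other. It was above 1 in this direction for 7 members, against 4.76% of all genes, and for 0 members in the opposite direction, against 9.71%. The remaining 17 members overlapped in CPM, the scale of the levels and overlaps given below unless TMM is named. With TMM factors, which scale libraries after trimming the genes that differ most between them, 27 members were lower in all 4 tumours, against 32.4% of 7902 genes, 0 were higher in all 4, against 30.2%, and F10, F13b, Fgb, Serpinf2, Kng1, Cpb2, C4b and C6 overlapped. Without NEJ687, 28 members were lower in the remaining 3 tumours in CPM, against 20.6% of 7963 genes. F10 and C6 overlapped with both scalings and without any 1 tissue. Serpinf2 and Cpb2 overlapped with both scalings, but in CPM without NEJ146 they were above all of the other 3 tissues, an order that 53.8% of 8099 genes then had. The 7 members were Mbl2, Mbl1, F5, C9, F9, C8g and C8a, with gaps of 3.76, 2.88, 2.29, 2.18, 1.87, 1.65 and 1.37. F11 at 0.96 and Klkb1 at 0.93 stood just outside that threshold.

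Among the vitamin K dependent proteases and their cofactors, F5 had the largest gap and F10 the smallest. F5, the cofactor of factor Xa, measured 43.4, 42.3, 38.5 and 36.0 CPM in NEJ146 sections 1 to 4, 26.5 in NEJ723, 36.1 in NEJ634 and 30.3 in NEJ687, against 217 in NEJ638, 232 in NEJ654 and 199 in NEJ677. The groups did not overlap, and in CPM + 1, the scale of all folds here, the lowest of the other 3 tissues was 4.88-fold above the highest tumour. F9, the protease missing in haemophilia B, measured 18.9 ± 3.08 CPM (SD over 4 adjacent sections) in NEJ146, 23.7 in NEJ723, 27.0 in NEJ634 and 21.9 in NEJ687, against 101, 113 and 105 in NEJ638, NEJ654 and NEJ677. Its levels within each group lay close together.

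F10, the protease at which the intrinsic and extrinsic branches meet, behaved differently. It measured 502, 428, 438 and 340 CPM in the NEJ146 sections, 390 in NEJ723, 361 in NEJ634 and 731 in NEJ687, against 456 in NEJ638, 506 in NEJ654 and 419 in NEJ677. NEJ687 held the highest level of all tissues and the groups overlapped. F2, which encodes prothrombin, stood at 44.4%, 39.2%, 42.0% and 68.6% of the median of the other 3 tissues in NEJ146, NEJ634, NEJ723 and NEJ687. F7, which starts the extrinsic branch with tissue factor, stood at 45.6%, 25.6%, 35.5% and 73.9%. Proc, the precursor of the anticoagulant activated protein C, stood at 35.9%, 43.9%, 58.1% and 57.8%, and the gap was 0.69. Its cofactor Pros1 overlapped between the groups, with 98.6% in NEJ687 and 49.1% in NEJ146.

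In the contact system and fibrin formation, F11 and Klkb1 were the members with separate groups. F11, which activates factor IX, measured 19.7, 17.9, 18.7 and 18.7 CPM in the NEJ146 sections, 24.1 in NEJ723, 26.5 in NEJ634 and 29.0 in NEJ687, against 67.7 in NEJ638, 57.4 in NEJ654 and 75.7 in NEJ677. The 4 tumours were all below the other 3 tissues. Klkb1, which encodes prekallikrein, stood at 38.3% to 45.6% of the median of the other 3 tissues in the 4 tumours. Fgb, the fibrinogen beta chain, had the smallest gap of the group, with 2217, 2065, 2184 and 1803 CPM in the NEJ146 sections, 1737 in NEJ723, 1923 in NEJ634 and 5104 in NEJ687, against 2927 in NEJ638, 4397 in NEJ654 and 5068 in NEJ677. NEJ687 was again the highest of the 7 tissues, while the other tumours lay below all 3. F13b, the carrier subunit of the fibrin-crosslinking enzyme, and Kng1, which encodes kininogen, stood at 139% and 136% in NEJ687. F12 was at 95.4% in NEJ723 and 54.3% in NEJ634.

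Of the inhibitors and the fibrinolysis genes, Serpind1 and Plg were lower in all 4 tumours. Serpind1, heparin cofactor II, measured 236, 229, 218 and 180 CPM in the NEJ146 sections, 126 in NEJ723, 200 in NEJ634 and 264 in NEJ687, against 547 in NEJ638, 574 in NEJ654 and 423 in NEJ677. The lowest of the other 3 tissues was 1.60-fold above NEJ687. Plg, which encodes plasminogen, stood at 37.0%, 19.9%, 21.9% and 65.6% of the median of the other 3 tissues in NEJ146, NEJ634, NEJ723 and NEJ687. Serpinf2, the plasmin inhibitor alpha 2-antiplasmin, overlapped instead, with 917, 806, 870 and 820 CPM in the NEJ146 sections, 1402 in NEJ723, 1291 in NEJ634 and 1477 in NEJ687, against 908 in NEJ638, 1238 in NEJ654 and 1195 in NEJ677. In CPM, NEJ634, NEJ723 and NEJ687 were above all of the other 3 tissues. Cpb2, which encodes a carboxypeptidase that slows fibrinolysis, stood at 72.8%, 119%, 109% and 128%. Serpinc1, antithrombin, stood at 69.3%, 71.1%, 58.5% and 113%.

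The classical and lectin branches of complement held both the members with the widest range over the 7 tissues, Mbl2 and Mbl1, and the one with the narrowest, Masp2. Mbl2 measured 51.5, 52.2, 45.2 and 32.6 CPM in the NEJ146 sections, 4.28 in NEJ723, 17.0 in NEJ634 and 25.6 in NEJ687, against 739 in NEJ638, 759 in NEJ654 and 627 in NEJ677. The NEJ723 value rests on 187 UMIs, with an exact Poisson 95% interval of 3.69 to 4.94 CPM that covers counting error only. The lowest of the other 3 tissues was 13.5-fold above the highest tumour. Mbl1 measured 26.8, 28.8, 24.5 and 17.6 CPM in the NEJ146 sections, 3.14 in NEJ723, 19.8 in NEJ634 and 15.3 in NEJ687, against 186 in NEJ638, 234 in NEJ654 and 210 in NEJ677. Both lectins were lowest in NEJ723 and, among the tumours, highest in NEJ146.

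The proteases that the lectins activate lay nearer to the level of the other 3 tissues. Masp1 stood at 57.4%, 68.0%, 70.8% and 85.2% of the median of the other 3 tissues in NEJ146, NEJ634, NEJ723 and NEJ687, and Masp2 at 72.5%, 65.4%, 77.4% and 99.6%. The C1 protease genes differed from each other, since C1s1 stood at 46.5% to 53.7% in the 4 tumours and C1ra at 71.9% to 123%. C2, the protease of the classical C3 convertase, stood at 38.8% to 70.7%. C4b, its partner, had the smallest gap, with 746, 659, 664 and 564 CPM in the NEJ146 sections, 847 in NEJ723, 665 in NEJ634 and 1215 in NEJ687, against 869 in NEJ638, 989 in NEJ654 and 874 in NEJ677. NEJ687 was the highest tissue and the groups overlapped.

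C3 and the alternative pathway genes overlapped between the groups in CPM, whereas with TMM they were lower in all 4 tumours, by gaps of 0.26 for C3, 0.34 for Cfb and 0.24 for Cfi. C3, the central protein of the cascade, measured 4376, 3766, 3716 and 2790 CPM in the NEJ146 sections, 2975 in NEJ723, 2958 in NEJ634 and 6615 in NEJ687, against 7388 in NEJ638, 7307 in NEJ654 and 5466 in NEJ677. Cfb, the protease of the alternative convertase, measured 122, 121, 95.3 and 73.9 CPM in the NEJ146 sections, 215 in NEJ723, 126 in NEJ634 and 284 in NEJ687, against 361, 312 and 248 in NEJ638, NEJ654 and NEJ677. For both genes NEJ687 reached above NEJ677, and the other tumours did not. Cfi, which inactivates C3b and C4b, stood at 62.2%, 86.3%, 116% and 113% of the median of the other 3 tissues.

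The terminal components that form the membrane attack complex differed from each other. C9, its pore-forming subunit, measured 17.7, 20.2, 15.8 and 11.4 CPM in the NEJ146 sections, 3.21 in NEJ723, 10.9 in NEJ634 and 4.75 in NEJ687, against 77.3 in NEJ638, 84.5 in NEJ654 and 201 in NEJ677. All tumours were below all of the other 3 tissues, with 4.53-fold between the nearest tissues. C8g and C8a, which encode 2 of the 3 chains of C8, stood at 6.81% to 24.2% and at 23.5% to 35.7% of the median of the other 3 tissues. C8b, the remaining chain, stood at 29.9% in NEJ146, 94.1% in NEJ723, 75.2% in NEJ634 and 52.5% in NEJ687, and overlapped between the groups in CPM but not with TMM, where the gap was 0.24. In NEJ723, C8b was thus near the level of the other 3 tissues while C8g was at 6.81%.

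C6 had the lowest gap of the 35 members, at -1.87. It measured 15.4, 16.3, 13.9 and 10.4 CPM in the NEJ146 sections, 1.01 in NEJ723, 8.84 in NEJ634 and 22.4 in NEJ687, against 5.39 in NEJ638, 12.5 in NEJ654 and 62.1 in NEJ677. NEJ677 held the highest level, and the NEJ723 value rests on 44 UMIs. NEJ677 was also the highest tissue for C9, C8a and C8b. It was the only one of the other 3 tissues with UMIs of Ddx3y, at 24.2 CPM, and its Xist level was 0.0255 CPM against 46.8 in NEJ638 and 49.5 in NEJ654, so sex and tissue cannot be told apart in that comparison. Among the 4 tumours, Ddx3y measured 23.7 CPM in NEJ723 and 20.9 in NEJ687, with Xist at 0.0687 and 0.0522 CPM, and had no UMI in NEJ146 and NEJ634, where Xist measured 38.9 and 63.9 CPM. C9 was lower in the former pair of tumours than in the latter, the opposite order to that in the other 3 tissues. Hc, which encodes C5, stood at 49.2%, 44.0%, 24.4% and 65.0% of the median of the other 3 tissues in NEJ146, NEJ634, NEJ723 and NEJ687.

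Across the 35 members NEJ687 was the highest of the 4 tumours for 21 and the lowest for 0. At or above the median of the other 3 tissues stood 11 members in NEJ687, 3 in NEJ723, 2 in NEJ634 and 1 in NEJ146. The median gene stood above that level in all 4, at 136%, 144%, 143% and 112%. A smaller part of the members than of all genes thus reached it in CPM. The count of members depends on the scaling, because TMM factors moved the median gene by -0.35 to 0.32 on the log2 scale between tissues. With TMM, 4 members in NEJ687 and 0 in the other tumours reached that level, so Serpinf2, Cpb2 and Cfi, above it in 2 or more tumours in CPM, were below it in all 4. The members still at or above it in NEJ687 were C6 at 132%, F10 at 120%, Kng1 at 107% and F13b at 103%. For the order among the tumours and for the TMM counts, no share of all genes was taken.

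The range over the 7 tissues was set against the SD between the NEJ146 sections, taking the larger of the gene's own SD and the median SD of all genes. It exceeded 10 times that value for 18 members, against 62.9% of all genes. The SD of log2(CPM + 1) over these sections had a median of 0.18 over the members and 0.08 over all genes. By this SD, the adjacent sections differed from each other more in these genes than in the typical gene. Section 4 held the lowest value of 33 members and section 1 the highest of 26, ranks for which no share of all genes was taken. Section 4 also stood apart over all genes, where the chi-square of its counts, divided by its degrees of freedom, was 67.6 to 91.6 against the other sections and 14.8 to 20.5 among those. Its hepatocyte markers summed to 13386 CPM against 17932 to 19970 in the other sections, and its erythroid markers to 8180 against 7025 to 7286 CPM, and their part in the member values was not tested.

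Of the 44 other genes of coagulation, fibrinolysis and complement that were listed, 29 reached 10 CPM in at least 1 tissue. All 4 tumours were below the other 3 tissues for 11 of them and above for 6, and 12 overlapped. Of the 9546 genes that passed this filter, 17.4% and 44.9% had those orders. The gap was above 1 for 4 that were lower, against 4.66%, and for 1 that was higher, against 10.2%. A gene can pass this filter through 1 group alone, as Plaur and Plat did through the tumours. Among the 10 with the widest range, the lower genes with such a gap included C4bp (gap 2.66), which encodes a soluble inhibitor of the classical C3 convertase, Hrg (1.48), which encodes histidine-rich glycoprotein, and Serping1 (1.31), the inhibitor of C1. Colec10, a collectin, had a gap of 0.63 and Cd55, a membrane inhibitor, overlapped. Plaur, the urokinase receptor, was higher in all 4 tumours, with 5.80 CPM in NEJ146 as the lowest tumour and 31.6 CPM in NEJ723 as the highest, against 1.3, 0.64 and 0.53 in NEJ638, NEJ654 and NEJ677. Plat, tissue plasminogen activator, was also higher in all 4, at 2.91 to 14.3 against 0.46 to 1.06. C1qb and C1qc, which are made by macrophages, measured 207 to 354 and 142 to 264 CPM against 72.1 to 110 and 55.0 to 84.2. The summed macrophage markers ranged from 156 to 1406 CPM in the sections of the 4 tumours and from 233 to 417 in the other 3 tissues, and their part in the C1q levels was not tested.

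To ask where in the tissue the members were expressed, spots were ordered by pericentral genes (Glul, Cyp2e1, Cyp1a2, Oat, Slc1a2) minus periportal genes (Cyp2f2, Hal, Hsd17b13, Ass1, Pck1), and the spots of each section were cut into lower, middle and upper parts of equal size, of which the upper and lower were compared as the pericentral-rich and periportal-rich ends. Over the 7 tissues as paired sums, edgeR's quasi-likelihood test called 0 members and 28 of 12986 genes (0.216%) at a Benjamini-Hochberg adjusted p under 0.05. At an unadjusted p under 0.05 it had 16 members, against 12.3% of all genes. DESeq2 called 3 members higher at the lower end, against 0.408%. In values, 9 members were lower at the upper end in all 7 tissues, against 1.88% of 8021 genes, and 1 was higher, against 4.11%. Of the 38 other pathway genes tested, Thbd, the thrombin receptor of endothelium, was called (0.76, adjusted p = 0.0305 by edgeR). The summed endothelial markers were also higher at the upper end in all 7 tissues. They went from 73.2 to 115 CPM in NEJ634 and from 169 to 184 in NEJ638, and their part in the Thbd value was not tested. The axis did not separate the same genes in every tissue. The periportal gene Cyp2f2 was lower at the pericentral-rich end, by -1.98, -1.98 and -2.06 on the log2 scale in NEJ638, NEJ654 and NEJ677, and by -0.87, -0.18 and -1.13 in NEJ634, NEJ723 and NEJ687, whereas in NEJ146 it was higher there by 2.21. Members lower at that end numbered 30 of 35 in NEJ634 and in NEJ723, and 23, 27 and 26 in NEJ638, NEJ654 and NEJ677. They numbered 19 in NEJ687 and 17 in NEJ146. For these counts no share of all genes was taken. Median member differences ran from -0.17 in NEJ634 to 0.06 in NEJ146 on the log2 scale, with -0.096 in NEJ723. Summed hepatocyte markers went from 33773 CPM at the lower to 22380 at the upper end of NEJ634. They were higher at the upper end of NEJ687 and NEJ146, and their part in the counts was not tested. Since Cyp2f2 was higher at the upper end of NEJ146, the axis there is not taken to run between the ends of a lobule. In NEJ634, NEJ723 and NEJ687 the upper part had median axis values of -1.84, -2.89 and -2.75. These lay below those of the lower part of NEJ638, NEJ654 and NEJ677, at -1.21, -0.57 and -1.54. The ends are thus relative within each section, and the upper end of these tumours is not taken as pericentral. The ends of NEJ146 are called its upper and lower end below, the upper being the end with more pericentral minus periportal signal.

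Fitted on NEJ638, NEJ654 and NEJ677 alone, a choice made after the data had been seen, the same edgeR test called 14 members higher at the periportal-rich end, against 9.12% of 12549 genes, and 2 higher at the pericentral-rich end, against 8.20%. C9 had the largest difference of the 16, at -1.31 ± 0.07 (SE, log2, adjusted p = 4.18e-10 by edgeR). It measured 113, 83.9 and 43.4 CPM in the lower, middle and upper part of NEJ638, 122, 90.0 and 45.2 in NEJ654, and 263, 221 and 125 in NEJ677. C9 thus fell in steps from the periportal-rich to the pericentral-rich end in all 3 tissues. The next at the periportal-rich end were Kng1 at -0.37 ± 0.06 (adjusted p = 0.000408 by edgeR) and C2 at -0.36 ± 0.06 (adjusted p = 0.000132 by edgeR).

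The other members higher at the periportal-rich end were Hc, C4b, F7, Fgb, Cfi, F10, C8a, Serpind1, C8b, C3 and Cfb, with log2 differences from -0.35 to -0.20. They include members of each role. The summed hepatocyte markers stood at 99986 CPM at the periportal-rich and 84585 at the pericentral-rich end of NEJ638, at 129644 and 93098 in NEJ654 and at 89244 and 66050 in NEJ677. Biliary markers stood at 31.6 and 5.11, 15.7 and 3.94, and 13.5 and 1.67 CPM in the same order, and macrophage markers at 240 and 200, 464 and 342, and 405 and 245 CPM. Their part in the member differences was not tested. Mbl1 went the other way, at 0.45 ± 0.06 (adjusted p = 9.90e-06 by edgeR), with 160, 181 and 211 CPM over the parts of NEJ638, 191, 221 and 283 in NEJ654, and 176, 210 and 242 in NEJ677. F5 was also higher at the pericentral-rich end, at 0.22 ± 0.06 (adjusted p = 0.0125 by edgeR). C6 had a log2 difference of 1.19 in NEJ677, where it measured 40.5, 49.6 and 93.8 CPM over the parts, against -0.05 in NEJ638 and -0.15 in NEJ654, and did not pass the test (adjusted p = 0.526 by edgeR). Of the 36 other pathway genes tested, 13 were higher at the periportal-rich end, among them Hgfac (-0.51), Fga (-0.29) and Fgg (-0.27), and 3 at the pericentral-rich end, namely Thbd (0.79), C4bp (0.32) and Cd59a (0.18).

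**Figure D2:**
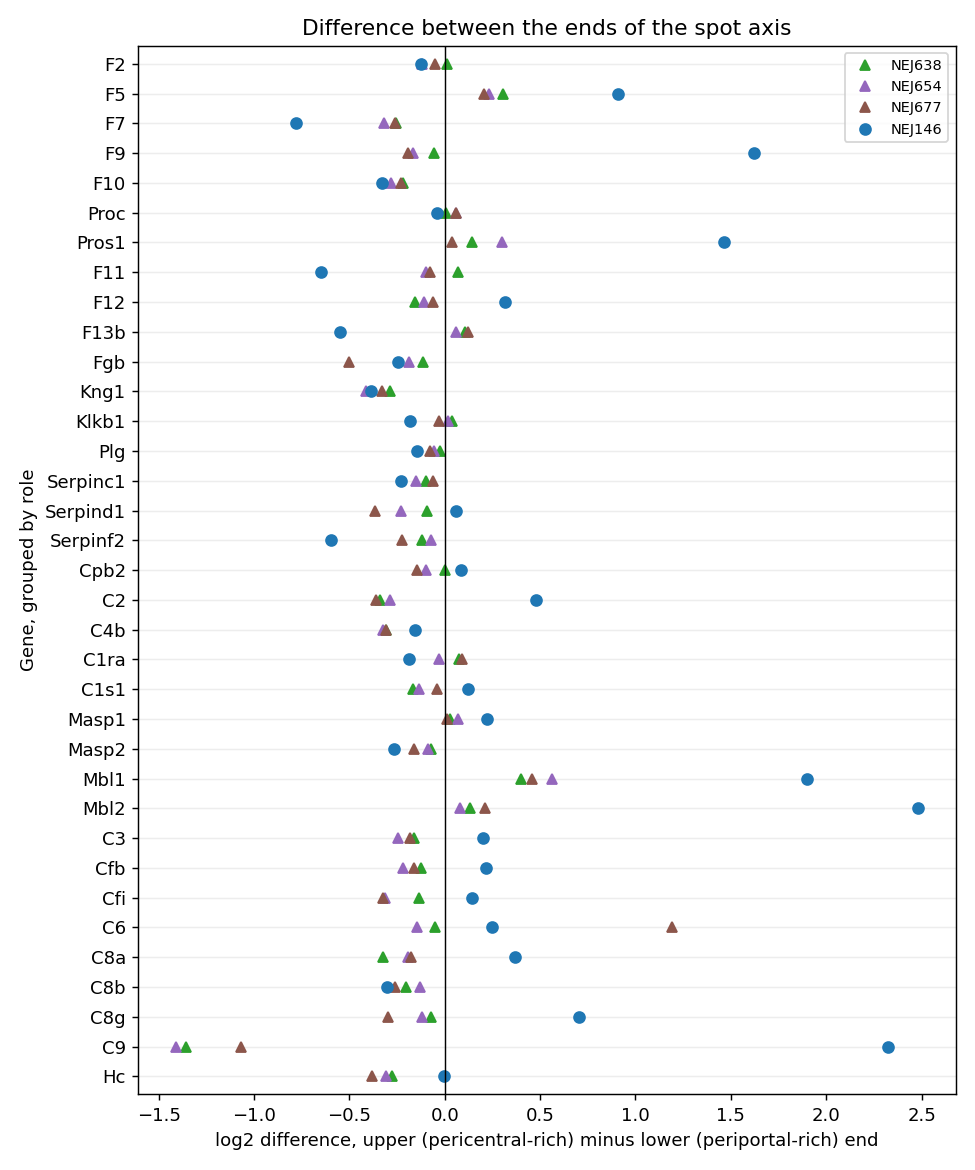
Log2 difference of each gene between the upper (pericentral-rich) and the lower (periportal-rich) end of the spot axis, in NEJ638, NEJ654 and NEJ677 (triangles) and NEJ146 (circles). The triangles of C9 lie between -1.41 and -1.07, while its circle lies at 2.33. In the tumours not plotted, C9 stood at -1.03 in NEJ634, -0.56 in NEJ687 and 0.31 in NEJ723, the last on 140 UMIs. In NEJ146 the periportal gene Cyp2f2 was also higher at the upper end.

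Within NEJ146 the members split along the same spots in another way. In all 4 sections, 7 members were higher by at least 0.5 on the log2 scale at the upper end, against 9.92% of all genes, and 3 were lower by at least that much, against 2.97%. The adjacent sections are not independent, so their agreement is within 1 tissue. Depth also differed between the ends, with section medians of 21143.5 to 24928.5 UMIs per spot at the upper and 14847 to 20078.5 at the lower end. Its part in the member values was not tested. Mbl2 measured 14.3, 29.4 and 84.7 CPM over the parts of the axis, C9 4.82, 13.4 and 28.2, Mbl1 10.2, 19.2 and 40.7, and F9 8.96, 15.9 and 29.7. Pros1 followed with 8.57, 13.2 and 25.4 CPM. In the other direction F7 measured 93.7, 76.1 and 54.2 CPM and F11 22.8, 20.1 and 14.2.

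All 7 members with a gap above 1 between the tissues were higher at the upper end of NEJ146 in all 4 sections, as were 89% of the 382 genes with such a gap and 34.6% of all genes, of which 42.6% were lower in all 4, so this is near the share of such genes in general. Of the 17 members that overlapped in CPM, 7 were higher there in all 4 sections, against 40% of the 3026 genes whose groups overlapped, and 10 were lower, against 31.1%. The gap includes the NEJ146 level, so these values are not independent of it. The hepatocyte markers were also higher at that end, at 23191 against 12499 CPM, with Alb at 14065 against 5394 CPM, and the tumour and hepatoblast markers lower, at 6760 against 9094 CPM. Biliary markers stood at 36.6 against 6.06 CPM, stromal markers at 624 against 221 CPM and erythroid markers at 3586 against 11655 CPM. Their part in the member values was not tested. Even at that end, Mbl2 was below its lowest value in any part of the other 3 tissues, which was 577 CPM in NEJ677.

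**Figure D3:**
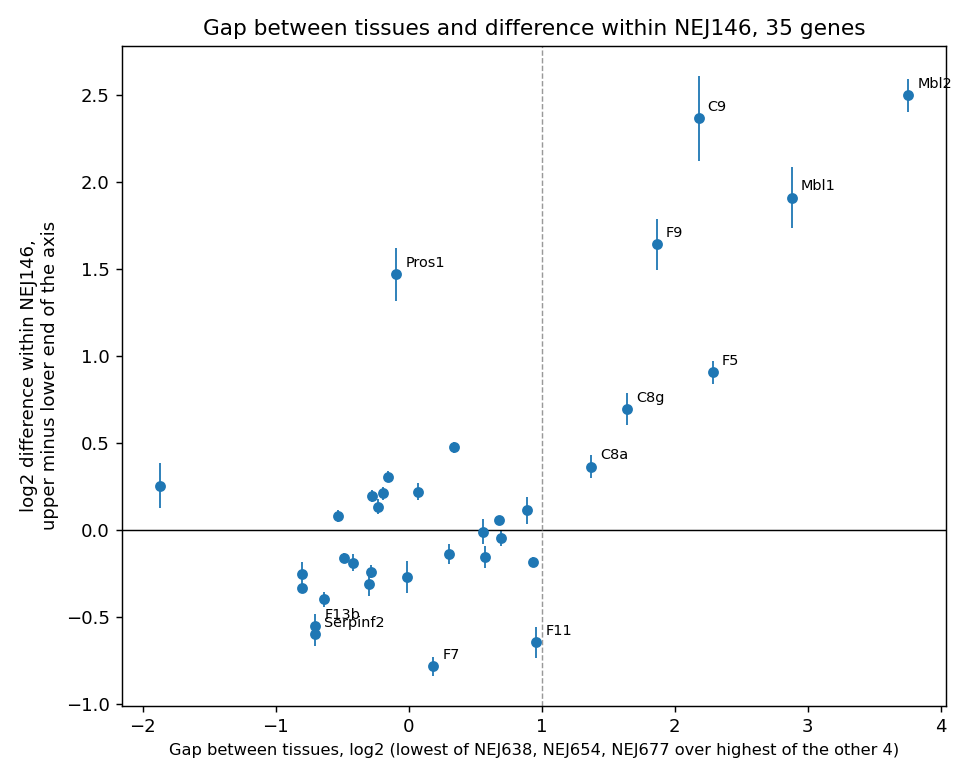
Log2 difference within NEJ146 between the upper and lower end of the spot axis (mean and SD over 4 adjacent sections) against the log2 gap between tissues for each of the 35 genes, with the dashed line at a gap of 1. All 7 genes to the right of the line lie above 0, led by Mbl2, C9 and Mbl1.

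**Figure D4:**
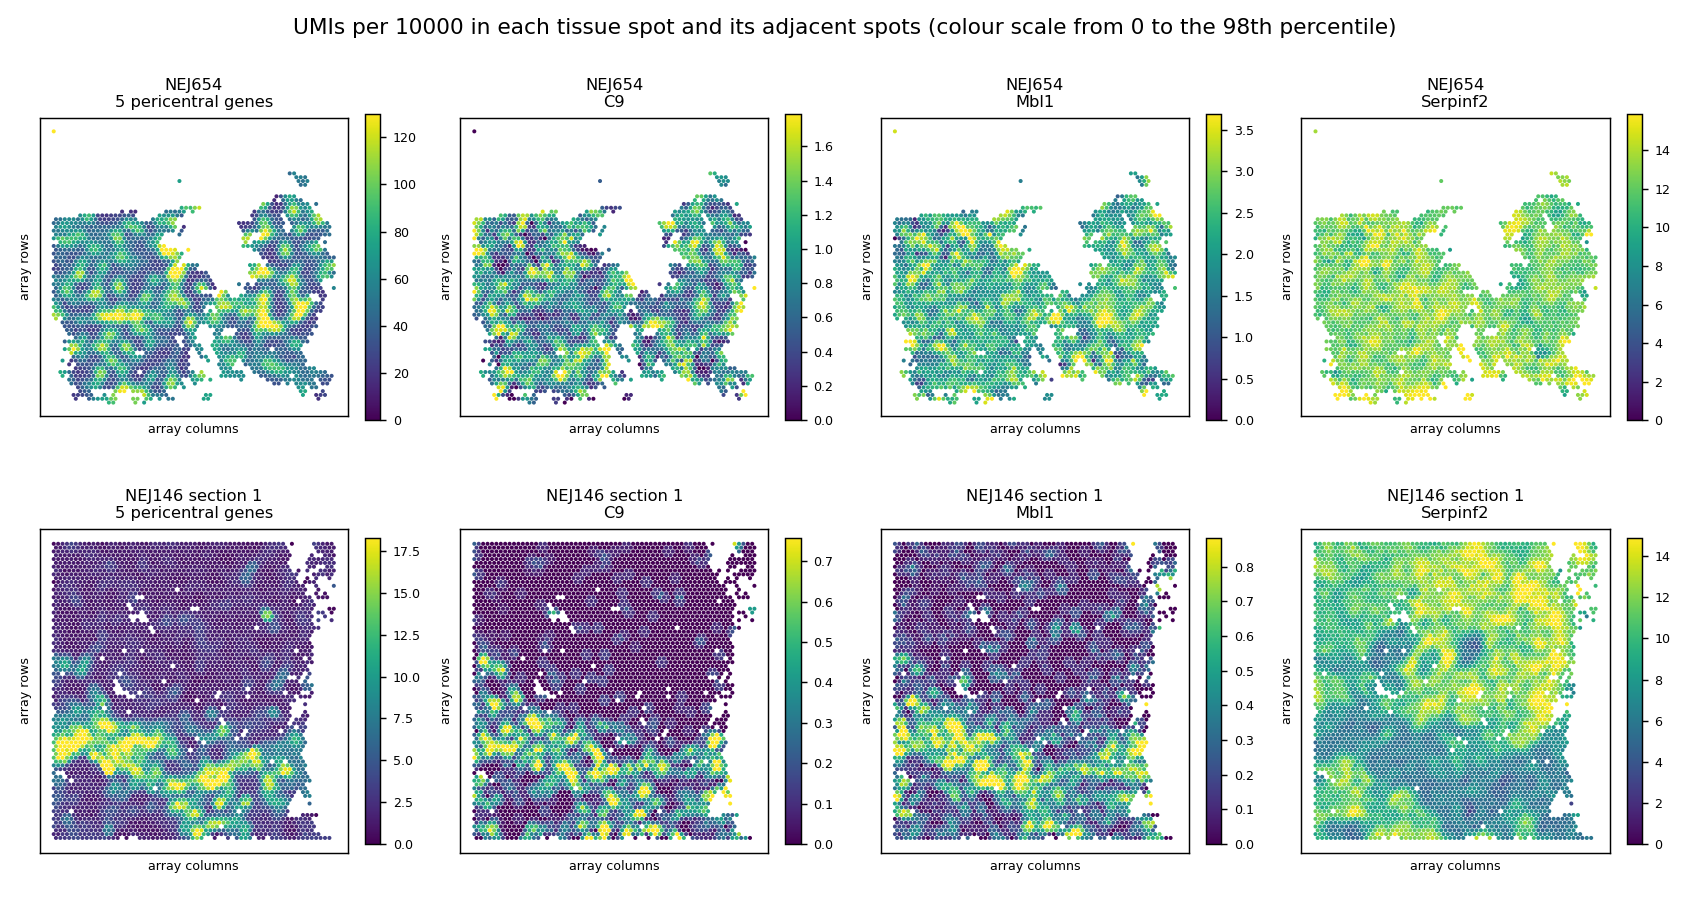
UMIs per 10000 in each tissue spot with its adjacent spots, for the 5 pericentral genes summed, C9, Mbl1 and Serpinf2, in NEJ654 (upper row) and NEJ146 section 1 (lower row), each panel with its own colour scale. In NEJ654 C9 and the pericentral genes alternate over short distances, while in NEJ146 C9, Mbl1 and the pericentral genes share a band at one side where Serpinf2 is lower.

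Spots were also ordered by Afp, the fetal albumin relative that marks these tumours, in the 4 tissues with at least 100 CPM of it, which were the 4 tumours. edgeR called 0 of 13517 genes (0%) and so 0 members, with 13 members at an unadjusted p under 0.05, against 15.7% of all genes, and DESeq2 called 3 members higher at the Afp-rich end, against 1.05%, and 0 at the Afp-poor end, against 0.843%. Within NEJ146, 3 members were higher by at least 0.5 on the log2 scale at the Afp-rich end in all 4 sections, against 3.94% of all genes, and 7 were lower by that much, against 5.16%. There the section medians were 22180.5 to 28938 UMIs per spot at the Afp-poor and 14786.5 to 18119 at the Afp-rich end. The part of this depth in the member values was not tested. In values, 15 members were higher at the Afp-rich end in all 4 tissues, against 11.3% of 8021 genes, and 4 were lower in all 4, against 13.7%. Marker lists also differed between the ends. The tumour and hepatoblast markers, Afp included, went from 7819 CPM at the Afp-poor to 7054 at the Afp-rich end of NEJ634. They rose from 6159 to 10357 in NEJ146, from 3138 to 4482 in NEJ723 and from 12634 to 14491 in NEJ687. Hepatocyte markers went from 22892 CPM at the Afp-poor to 36022 at the Afp-rich end of NEJ634, from 19865 to 25713 in NEJ723 and from 19443 to 23098 in NEJ687, and from 21577 to 17236 in NEJ146. Erythroid markers went from 915 to 207 CPM in NEJ634, from 3058 to 1043 in NEJ723 and from 7451 to 4691 in NEJ687, but from 5378 to 6635 in NEJ146. Macrophage markers went from 1071 to 198 CPM in NEJ634 and from 552 to 793 in NEJ146, with 177 and 143 in NEJ723 and 1360 and 1401 in NEJ687. Neutrophil markers went from 356 to 89.3 CPM in NEJ634 and from 451 to 322 in NEJ687, but from 41.2 to 122 in NEJ146 and from 149 to 165 in NEJ723. Endothelial markers went from 121 to 55.6 CPM in NEJ634, from 77.0 to 56.1 in NEJ723 and from 128 to 105 in NEJ146, with 129 and 137 in NEJ687, and megakaryocyte markers from 45.6 to 90.3 CPM in NEJ146, with 55.0 and 48.2 in NEJ634, 125 and 137 in NEJ723 and 121 and 102 in NEJ687. Stromal markers went from 518 to 409 CPM in NEJ146 and from 1089 to 928 in NEJ634. They stood at 265 and 254 in NEJ723 and at 296 and 306 in NEJ687. Biliary markers went from 109 to 137 CPM in NEJ634 and from 74.4 to 111 in NEJ723. They fell from 30.0 to 23.4 in NEJ146 and from 7.68 to 4.39 in NEJ687. Their part in the member values was not tested. Serpinf2 measured 648 CPM at the Afp-poor and 1058 at the Afp-rich end of NEJ146, 1000 and 1592 in NEJ634, 1286 and 1497 in NEJ723, and 1361 and 1577 in NEJ687. C8b measured 49.5 and 76.1, 106 and 210, 165 and 218, and 93.0 and 120 CPM in the same order. Mbl2 had the opposite order in these 4 tissues, with 82.5 and 16.3, 27.4 and 9.92, 4.53 and 4.14, and 32.8 and 21.9 CPM. The log2 differences were 0.45 ± 0.09 for Serpinf2 (adjusted p = 0.223 by edgeR), 0.59 ± 0.11 for C8b (adjusted p = 0.223 by edgeR) and -1.30 ± 0.42 for Mbl2 (adjusted p = 0.277 by edgeR), and none of them passed the test.

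How far neighbouring spots resembled each other was measured as Moran's I of count residuals given the depth of each spot, where 0 means no spatial order. At least 0.1 was reached by 147 of 350 member and section values, against 10.3% of all gene and section values. By section, 21 to 24 members reached it in NEJ146 (15.6% to 18.9% of all genes), 21 in NEJ634 (15.1%), 13 in NEJ687 (5.20%), 9 in NEJ723 (3.75%), 4 in NEJ638 (3.98%), 6 in NEJ654 (4.00%) and 6 in NEJ677 (2.74%). The depth at which a gene is counted was not matched in these shares. C3, C4b and Kng1 reached it in all 10 sections, with values of 0.165 to 0.580 for C3, and 7 members in none. No share of all genes was taken for these counts over all sections. Serpinf2 reached 0.469 to 0.559 in the NEJ146 sections, 0.484 in NEJ634, 0.192 in NEJ687 and 0.165 in NEJ723, but 0.0160 to 0.0723 in the other 3 tissues. C9 was ordered in NEJ638, NEJ654 and NEJ677, at 0.121, 0.132 and 0.155, and in NEJ146, at 0.214 to 0.297.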

How the data were processed

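The authors deposited unnormalised UMI counts per gene and spot for 10 Visium sections. The study's methods name Space Ranger, the submitters' processing notes name Cell Ranger 6.0 for NEJ146 and Space Ranger 1.3 on mm10 for the others, and no build is given for NEJ146. Tissue spots were those with the deposited in-tissue call and, for NEJ146, spots with at least 8000 UMIs. Counts were summed and scaled to CPM, giving 39280329 to 117077925 UMIs per section; exact Poisson 95% intervals cover counting error only. Spot axes and Moran's I used tissue spots with at least 500 UMIs, the axes averaged over adjacent spots, with NEJ146 array positions taken from the same barcodes elsewhere. Sums per tissue and end were tested with edgeR 4.0.16 (TMM, filterByExpr, tissue as a block, axis genes left out), with DESeq2 as an alternative, and the steps were tested on simulated data. The SE of an edgeR log2 difference was taken as its absolute value divided by the square root of the F statistic of the test. Gap and range used log2(CPM + 1). Genes given per section are those with the largest and smallest gap in each role group and those leading the spot fits; of other pathway genes, the 10 with the widest range. Members and lists were chosen with earlier results of these data known. Spot doublets were not called. Of the other pathway genes, 1 is not reported here by name.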

Additional observations from a re-analysis of the deposited data

Results flagged for a closer look

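Outside the spots called tissue, in counts that entered no comparison, the 35 genes made up 2.67% of UMIs in NEJ638, 2.75% in NEJ654, 2.70% in NEJ677, 1.97% in NEJ687, 1.26% in NEJ634 and 0.977% in NEJ723. These spots held a median of 6660 to 11895 UMIs in these 6 sections. There are no control samples for this signal, which is far above a count of 0. Over tissue the same genes made up 2.66%, 2.90% and 2.65% in NEJ638, NEJ654 and NEJ677, 2.61% in NEJ687, 1.35% in NEJ634 and 1.38% in NEJ723.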

How the results depend on the processing

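The count of 7 members with a gap above 1 became 9 with TMM scaling, 18 at a gap above 0 and 4 at a gap above 2, and 7 to 9 when 1 tissue at a time was left out. For the counts of 9, 4 and 7 to 9 no share of all genes is given here, so a shift of all genes cannot be told apart. The 18 members lower in all 4 tumours became 27 with TMM, where the genes in that order went from 18.1% to 32.4% and those in the opposite order from 44.1% to 30.2%, and 18 to 28 when 1 tissue at a time was left out, the 28 without NEJ687. The 0 members in the opposite order became 2, Serpinf2 and Cpb2, without NEJ146, where such genes went from 44.1% to 53.8%. These were alternatives added after the data had been seen. The 18 members with a range beyond 10 SD, against 62.9% of all genes, became 29 at 5 SD, 6 at 20 SD and 16 to 27 without 1 NEJ146 section. No share of all genes is given here for these other range settings. The 0 members called along the pericentral minus periportal spot axis became 3 with DESeq2, 2 with the axis of the single spot (0.0692% of genes in that direction) and 16 in NEJ638, NEJ654 and NEJ677 alone, and 0 to 6 when 1 tissue at a time was left out, the 6 without NEJ146 (0.346% of genes in that direction). The genes called went from 28 to 191 with DESeq2. Along the Afp axis the 0 members became 3 with DESeq2 and stayed 0 when 1 tissue at a time was left out. Without the tissue block, edgeR called 0 members on both axes. Some uncalled values changed sign. C8g, at 0.06 on the spot axis, became -0.046 with the single-spot axis, -0.12 without the tissue block and -0.19 in the other 3 tissues alone, and F9, at 0.16, became -0.074 without the block and -0.16 in those 3. In those 3 tissues F13b, C1ra and Proc became 0.073, 0.018 and 0.015. In the 4 tumours alone C9 became 0.31, with 2.33 in NEJ146, 0.31 in NEJ723, -0.56 in NEJ687 and -1.03 in NEJ634. C3 on the Afp axis became -0.00663 without the block. With 1 tissue at a time left out, C8g ranged from -0.042 to 0.12 and F9 from -0.087 to 0.24 on the spot axis. On the Afp axis Hc ranged from -0.024 to 0.071, Masp2 from -0.00345 to 0.039, C1s1 from -0.10 to 0.055, F7 from -0.027 to 0.14, Masp1 from -0.14 to 0.090 and C3 from -0.10 to 0.14. None of these passed the test, and the cause was not tested. No paired analysis by replicate number was possible because the tissues share at most number 1. Each tissue is a single sample, so the order of the tissues has no replicate check.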
